A study of Mus musculus with 6 samples.

Results

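The B cell receptor and identity genes described here are Cd79a, Cd79b, Ms4a1, Cd22, Cd72, Blnk, Btk, Pax5 and Spib, a set of 9 genes of 20659 with a symbol on the array. They were chosen by name, and every probe of theirs was read on all 6 arrays of the series. The 12 probes carry RefSeq transcript accessions, through which the genes were matched. All 9 genes had at least 1 probe well above background and were tested.

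RNA from spleens of male ICR mice, an outbred strain, 8 weeks of age, was labelled with Cy3 and read on 1-colour Agilent arrays. Both groups received cyclophosphamide, an alkylating drug that kills dividing lymphocytes, at 40 mg/kg by intraperitoneal injection for 5 days. The SA-H group (arrays 4, 5 and 6, titled Medicine) then received SA, schisandrol A, a lignan of Schisandra fruit, by gavage at 1000 mg/kg per day and is labelled day 28. The MOD group (arrays 1, 2 and 3, titled Model) carries no SA in its labels and is labelled day 5, although the protocol gives water to model mice over the same 4 weeks. If both labels are right, SA and the sampling day cannot be told apart, and arrays of mice without cyclophosphamide were not analysed here. No label says that the arrays of a group came from separate mice, so that p-values rest on a spread between samples that could be technical only.

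The B cell receptor is a membrane immunoglobulin that signals through the paired chains Cd79a and Cd79b. The kinases Lyn, Syk and Btk and the adaptor Blnk carry the signal to Plcg2, whereas Cd22 and Cd72 recruit the phosphatase Ptpn6 and dampen it. In the spleen these genes mark the B cells of the follicles and the marginal zone, and Pax5 holds cells in the B lineage.

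Of the 9 genes, Cd22 and Cd72, both inhibitory receptors of the B cell surface, were higher in SA-H spleens, by 4.02-fold and 2.36-fold. The receptor chains Cd79a and Cd79b, the surface protein Ms4a1 (CD20), the adaptor Blnk, the kinase Btk and the transcription factors Pax5 and Spib did not pass both limits of the call. A gene was called when its levels differed 2-fold or more and limma gave an unadjusted p under 0.05. By that call 2 of the 9 genes were higher and 0 lower, against 8.74% of all 14829 tested genes and unnamed targets called higher and 4.93% called lower. After Benjamini-Hochberg adjustment over all tested genes, limma gave 0 of the 9 genes, and 0 of the 14829, an adjusted p under 0.05, while 3533 had an unadjusted p under 0.05. With scan day as a block the adjusted p was 0.025 for Cd22 and 0.042 for Cd72, in a fit that gave 7.94% of everything tested an adjusted p under 0.05. SA-H array 5, scanned alone on its day, adds nothing to the difference between groups in that fit. The set as a whole had a median log2 fold change of 0.26, the value of Cd79b, beside −0.021 over everything tested. Under quantile normalization that median was −0.070, beside −0.080 over everything tested, and with scaling to the array median −0.062, beside −0.34. In the log2 fold changes here, SA-H minus MOD, a positive value means higher in SA-H. Levels are log2 signals relative to the 75th percentile of the same array.

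Scanner brightness differed between arrays. The 75th percentile of the signal was 220, 868 and 433 on SA-H arrays 4, 5 and 6 and 626, 840 and 599 on MOD arrays 1, 2 and 3, and 43.1% to 73.9% of spots were well above background. SA-H array 4 was the dimmest and had, with MOD array 3, the lowest correlation of levels between any pair of arrays (r = 0.838). The arrays were scanned on 3 days, with SA-H array 6 and MOD arrays 1 and 3 on day 1, SA-H array 4 and MOD array 2 on day 2, and SA-H array 5 alone on day 3. Liver markers were included because the extraction protocol in the labels also speaks of liver. Of 10 such genes 2 were bright enough to be tested, Cyp2e1, which did not pass, and Tat, which was called higher in SA-H. Tat had a log2 fold change of 1.93. Its call was lost without SA-H array 4 (1.39), MOD array 1 (1.85) or MOD array 3 (1.45). The summed level of these 2 genes, on the linear scale, was 2.11 to 5.18 on SA-H arrays and 0.647 to 1.72 on MOD arrays. Of 24 B cell surface markers 20 were tested, and of 20 T cell markers 18. In bulk spleen RNA, fewer cells of a type and less RNA per cell cannot be told apart.

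**Figure D1:**
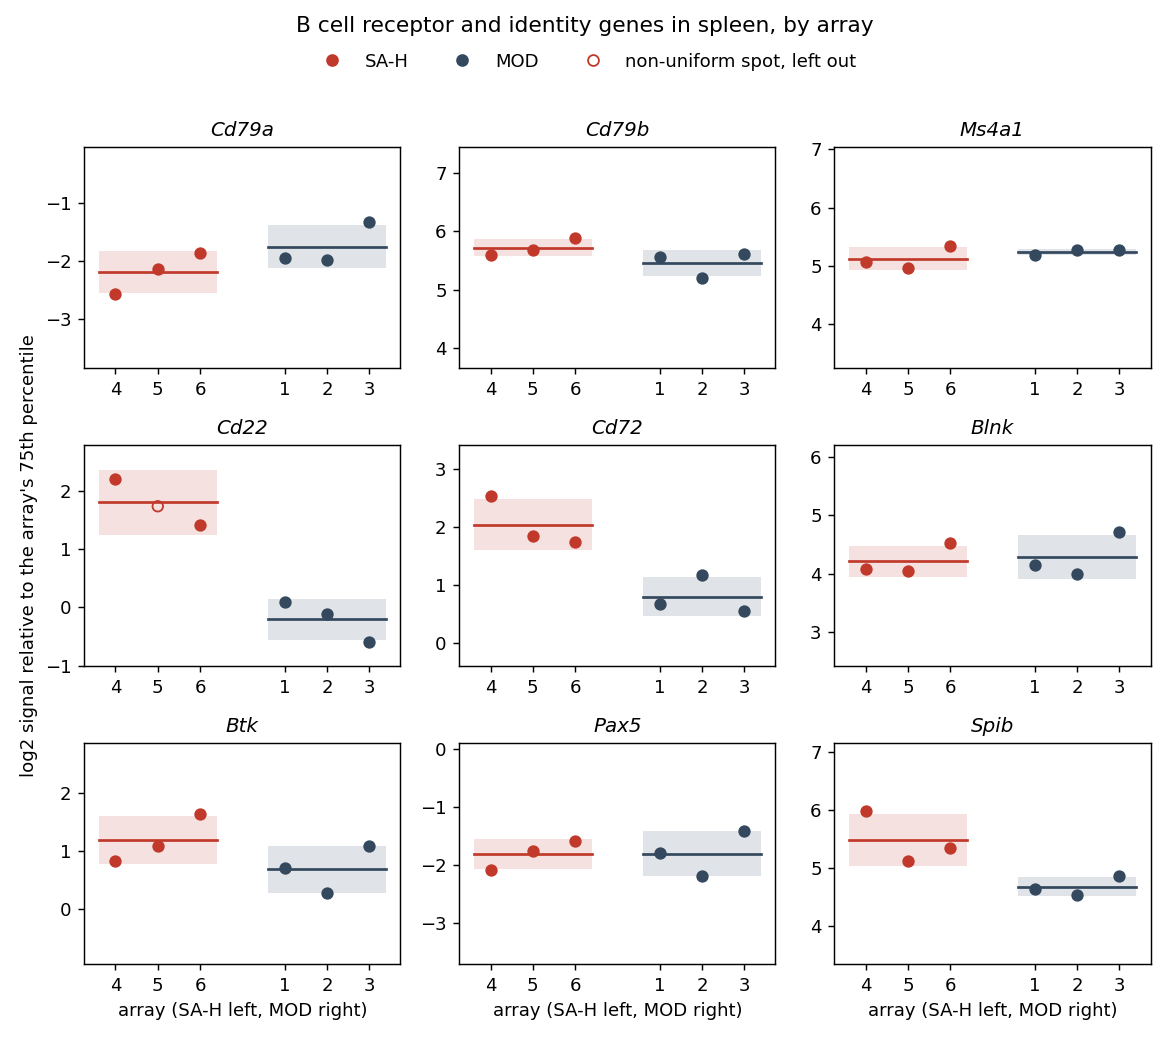
Levels of the 9 genes on each array (log2 signal relative to the array's 75th percentile), SA-H arrays left and MOD arrays right, with the group mean (line) and SD (band). Every panel spans the same number of log2 units around its own centre. All SA-H points lie above all MOD points for Cd22, Cd72 and Spib, and the groups overlap for the other 6 genes; the open circle for Cd22 is a spot of uneven brightness that was left out.

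The promoter windows of 4 of the genes are printed because they set Cd22, Cd72 and Spib, whose groups did not overlap, beside Cd79a, the signaling chain whose groups did. Each window runs from 250 bases before to 50 bases after the annotated start in RefSeq (GRCm38.p6), 5′ to 3′ on the strand of the gene, and 7 of the 9 genes have such an entry. Capitals mark matches to letters searched on both strands, the PU box GAGGAAGT, the ETS core GGAAGT, the octamer ATTTGCAT, the EBF site (TCCC, any 2 bases, GGGA) and the E box CAGGTG. The PU box overlaps the ETS core, since it ends in it. Cd22 lies at chr7:30878979-30879278 (minus strand), Cd72 at chr4:43454577-43454876 (minus strand), Spib at chr7:44532022-44532321 (minus strand) and Cd79a at chr7:24897247-24897546 (plus strand).
Cd22: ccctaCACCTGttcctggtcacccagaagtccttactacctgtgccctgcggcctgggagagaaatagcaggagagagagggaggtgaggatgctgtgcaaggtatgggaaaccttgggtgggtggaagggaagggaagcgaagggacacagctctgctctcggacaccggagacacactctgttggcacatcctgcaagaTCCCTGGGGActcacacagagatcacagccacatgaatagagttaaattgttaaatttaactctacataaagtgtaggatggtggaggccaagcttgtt
Cd72: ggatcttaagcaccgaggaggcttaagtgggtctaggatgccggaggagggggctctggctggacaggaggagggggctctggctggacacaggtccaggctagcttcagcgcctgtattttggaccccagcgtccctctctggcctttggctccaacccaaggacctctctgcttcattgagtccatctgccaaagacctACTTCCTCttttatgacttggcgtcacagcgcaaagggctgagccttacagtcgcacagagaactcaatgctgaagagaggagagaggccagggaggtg
Spib: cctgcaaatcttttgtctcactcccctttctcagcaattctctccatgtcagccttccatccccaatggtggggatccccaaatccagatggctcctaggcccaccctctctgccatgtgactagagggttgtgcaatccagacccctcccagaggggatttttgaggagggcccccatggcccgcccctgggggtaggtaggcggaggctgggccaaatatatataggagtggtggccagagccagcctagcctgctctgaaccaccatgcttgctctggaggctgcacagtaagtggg
Cd79a: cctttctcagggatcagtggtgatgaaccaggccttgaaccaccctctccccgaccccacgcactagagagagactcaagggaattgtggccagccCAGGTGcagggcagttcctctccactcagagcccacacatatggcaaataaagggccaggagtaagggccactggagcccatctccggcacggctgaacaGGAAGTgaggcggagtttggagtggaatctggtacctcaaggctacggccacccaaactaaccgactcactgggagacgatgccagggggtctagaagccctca
The Cd72 window held a PU box on the opposite strand, the purine-rich element that PU.1 and its relative Spi-B, the product of Spib, are known to bind. Of 32851 promoters, 3.20% held that box, and Cd72 was the only one of the 7 windows with it. The Cd22 window held an EBF site, found in 0.904% of promoters, and an E box, found in 20.2%. The Cd79a window held an E box and an ETS core, found in 23.8% of promoters. In mouse B cells Pax5 is known to recruit Ets factors to the Cd79a promoter. No match lay in the Spib window. The Blnk window, not printed, held the only octamer of the 7 windows, found in 1.74% of promoters, with ETS cores and an E box. The groups of Blnk overlapped. The windows of Btk and Pax5, whose groups also overlapped, held no match. The match is to letters alone, and no binding was measured in these samples.

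Cd22, a sialic acid-binding receptor that restrains B cell receptor signals, was the member with the widest gap between groups. Its probe, on a gene of chromosome 7, read 2.20 and 1.41 on SA-H arrays 4 and 6, against 0.084, −0.11 and −0.59 on MOD arrays 1, 2 and 3. The highest MOD array thus stood below the lower SA-H array by more than the spread within either group. The spot on SA-H array 5 was called non-uniform by the scanner software and left out, so that the fit rests on 5 arrays, and with that spot kept its level is 1.74, between the other SA-H arrays. The mean level was 1.80 ± 0.56 on SA-H arrays (SD, n = 2) and −0.21 ± 0.35 on MOD arrays (SD, n = 3). The log2 fold change was 2.01 (SE 0.37, 95% interval 1.11 to 2.91), with an adjusted p of 0.072 in limma.

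The call of Cd22 did not hold in the value table deposited with the series, where its difference was 0.045. In the scanner files the log2 fold change was 1.66 on day 1 (SA-H array 6 against MOD arrays 1 and 3) and 2.31 on day 2 (SA-H array 4 against MOD array 2). With the outlying spot kept, an alternative chosen after seeing the data, the log2 fold change was 1.99. Before scaling, the scanner signal of Cd22 was 1009 and 1147 on SA-H arrays 4 and 6 and 663, 778 and 398 on MOD arrays 1, 2 and 3. SA-H array 4 was therefore brighter for Cd22 than every MOD array although it was the dimmest array as a whole.

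Cd72, a lectin-like receptor that binds Cd100 and also restrains B cell receptor signals, was measured by 2 probes of a gene on chromosome 4. The brighter probe, A_55_P1961270, which stands for the gene, read 2.54, 1.85 and 1.74 on SA-H arrays 4, 5 and 6, against 0.68, 1.18 and 0.55 on MOD arrays 1, 2 and 3. The groups did not overlap, and SA-H array 4 was the highest. The mean level was 2.04 ± 0.43 on SA-H arrays and 0.80 ± 0.33 on MOD arrays (SD, n = 3 each). The log2 fold change was 1.24 (SE 0.31, 95% interval 0.50 to 1.98), with an adjusted p of 0.094 in limma.

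The other Cd72 probe, A_55_P2180415, read 2.15, 1.62 and 1.69 on SA-H arrays 4, 5 and 6, against 0.63, 0.69 and 0.94 on MOD arrays 1, 2 and 3. Both probes thus placed every SA-H array above every MOD array, and the log2 fold change of this one was 1.07. For the brighter probe the difference was 1.12 within scan day 1 and 1.36 within scan day 2. Without SA-H array 4 the log2 fold change of Cd72 was 0.99 (adjusted p = 0.10 in limma), just short of the fold limit. Scaling to the median of each array in place of the 75th percentile gave 0.92 (adjusted p = 0.26), a scaling that moved the median of all tested genes to −0.34.

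The signaling chains of the receptor did not pass. Cd79b, on chromosome 11, read 5.60, 5.68 and 5.88 on SA-H arrays 4, 5 and 6, against 5.56, 5.21 and 5.62 on MOD arrays 1, 2 and 3. The groups overlapped, since SA-H array 4 lay just below MOD array 3. The log2 fold change of Cd79b was 0.26 (95% interval −0.30 to 0.82, adjusted p = 0.52 in limma), and its direction turned under median scaling (−0.062) and quantile normalization (−0.070). Cd79a, on chromosome 7, read −2.56, −2.14 and −1.85 on SA-H arrays 4, 5 and 6, against −1.94, −1.98 and −1.33 on MOD arrays 1, 2 and 3. Its groups overlapped, with a log2 fold change of −0.43 (95% interval −1.15 to 0.28, adjusted p = 0.40 in limma). The Cd79a probe was dim, with scanner signals from 37.4 on SA-H array 4 to 239 on MOD array 3. Its level on SA-H array 4 lay near the lowest that was well above background there (−2.70). A 2-fold change of Cd79b in either direction lies outside its interval, while a 2-fold decrease of Cd79a lies inside its own.

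Ms4a1, the CD20 surface protein used to count B cells, lies on chromosome 19 and varied little. It read 5.06, 4.96 and 5.34 on SA-H arrays 4, 5 and 6, against 5.18, 5.27 and 5.26 on MOD arrays 1, 2 and 3. The MOD values fell inside the range of the SA-H values. The log2 fold change was −0.11 (SE 0.23, 95% interval −0.64 to 0.42, adjusted p = 0.78 in limma).

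Blnk, the adaptor that links Syk to Btk and Plcg2, also lies on chromosome 19 and read 4.08, 4.04 and 4.52 on SA-H arrays 4, 5 and 6, against 4.15, 3.99 and 4.71 on MOD arrays 1, 2 and 3. The SA-H values fell inside the range of the MOD values. Its log2 fold change was −0.068 (SE 0.29, 95% interval −0.75 to 0.61, adjusted p = 0.90 in limma). Btk, the kinase lost in X-linked agammaglobulinemia, lies on the X chromosome and has 2 probes. The brighter one, A_55_P2158498, read 0.82, 1.09 and 1.63 on SA-H arrays 4, 5 and 6, against 0.70, 0.27 and 1.08 on MOD arrays 1, 2 and 3. SA-H array 4 lay below MOD array 3, and the log2 fold change was 0.50 (SE 0.32, 95% interval −0.27 to 1.26, adjusted p = 0.37 in limma). The dimmer Btk probe, A_55_P1953819, was well above background on 2 of 3 SA-H arrays and read −2.55, −0.63 and −0.69 there (arrays 4, 5 and 6), against −1.17, −1.46 and −1.35 on MOD arrays 1, 2 and 3. SA-H array 4 alone was far below the rest at this probe, whose log2 fold change of 0.039 is 0.67 without that array.

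Pax5, the factor that commits progenitors to the B lineage, lies on chromosome 4. Its brighter probe, A_55_P2126394, read −2.09, −1.76 and −1.58 on SA-H arrays 4, 5 and 6, against −1.79, −2.19 and −1.42 on MOD arrays 1, 2 and 3. That probe was itself dim, with scanner signals from 51.6 on SA-H array 4 to 256 on SA-H array 5. The SA-H values fell inside the range of the MOD values, with a log2 fold change of −0.0088 (SE 0.29, 95% interval −0.69 to 0.67, adjusted p = 0.99 in limma). The dimmer Pax5 probe was well above background on 1 of 6 arrays, SA-H array 5, and gives no fold.

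Spib encodes Spi-B, an Ets factor that B cells and plasmacytoid dendritic cells both use, and lies on chromosome 7. It read 5.98, 5.12 and 5.35 on SA-H arrays 4, 5 and 6, against 4.63, 4.54 and 4.86 on MOD arrays 1, 2 and 3. Every SA-H array stood above every MOD array, with SA-H array 4 the highest. The mean level was 5.48 ± 0.45 on SA-H arrays and 4.68 ± 0.16 on MOD arrays (SD, n = 3 each). The log2 fold change of Spib was 0.80 (SE 0.29, 95% interval 0.12 to 1.49, adjusted p = 0.16 in limma). Its unadjusted p was under 0.05, and its ratio of 1.75 did not reach the fold limit. It was 0.56 without SA-H array 4, 0.61 within scan day 1 and 1.44 within scan day 2.

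Because plasmacytoid dendritic cells share Spib, their markers are given beside it. Of 7 dendritic cell markers tested, Siglech, a receptor of plasmacytoid dendritic cells, was called higher, at 7.14, 5.46 and 7.14 on SA-H arrays 4, 5 and 6, against 5.26, 5.13 and 5.68 on MOD arrays 1, 2 and 3. The groups overlapped for Siglech, through SA-H array 5, and its log2 fold change was 1.22 (adjusted p = 0.19 in limma). Its call was lost without SA-H array 4 (0.95), SA-H array 6 (0.94) or any of the 3 MOD arrays (1.11 to 1.39), and the log2 fold change was 1.78 without SA-H array 5. The other 6 did not pass, among them Ccr9 with 1.27 (adjusted p = 0.29). The summed level of the 7 markers, on the linear scale, was 47.3 to 145 on SA-H arrays and 37.8 to 55.9 on MOD arrays. The part of these cells in the Spib values was not tested.

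**Figure D2:**
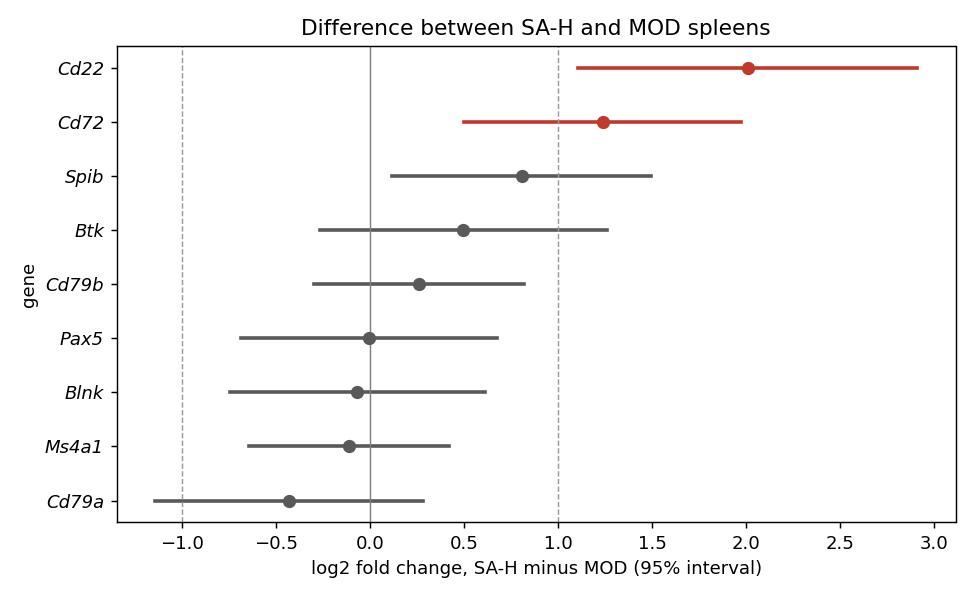
Log2 fold change of each gene, SA-H minus MOD, with its 95% interval from limma. Dashed lines mark the fold limit of 2 in either direction, and red marks the called genes. The intervals of Cd22 (1.11 to 2.91), Cd72 (0.50 to 1.98) and Spib (0.12 to 1.49) lie above 0, and those of the other 6 genes include 0.

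Among themselves the 9 genes did not move together. Log2 fold changes were positive for 5 and negative for 4, and unadjusted p was under 0.05 for 3, all of them higher in SA-H, against 11.7% of everything tested. The groups did not overlap for the same 3 genes, Cd22, Cd72 and Spib, all of them higher in SA-H. Of everything tested, 33.4% had groups without overlap, 13.1% higher and 20.3% lower in SA-H. Across the 6 arrays Cd72 and Spib had a Pearson r of 0.87 and Cd79b and Btk 0.96. Blnk and Pax5, whose probe was dim, had 0.87. Cd79a, read by a dim probe, and Cd72 ran opposite (r = −0.83). These correlations are descriptions over 6 arrays that share each array's scaling. Relative to the mean of the other members on the same array, an alternative chosen after seeing the data, Cd22 differed by 1.68 and Spib by 0.61 without overlap, each with an exact permutation p of 0.1, the smallest that 3 against 3 or 2 against 3 arrays can give. Cd72 differed by 1.10 on that scale, with overlap (exact permutation p = 0.2), and Cd79a, Ms4a1 and Blnk by −0.81, −0.44 and −0.39 without overlap. The mean set against Cd79a, Ms4a1 and Blnk includes Cd72 and Spib, both higher in SA-H, which lowers these differences by construction. Without that reference Ms4a1 and Blnk had −0.11 and −0.068, with overlap.

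The mean centred level of the 8 members measured on every array was 0.094, 0.019 and 0.29 on SA-H arrays 4, 5 and 6 and −0.19, −0.30 and 0.082 on MOD arrays 1, 2 and 3. This mean was highest on SA-H array 6, and the groups overlapped, through MOD array 3. Correlation with this mean over the 6 arrays was computed for 10957 other genes with values on all of them. Genes with symbols of the Gm-number, LOC and Rik kinds were then left out of the ranking. Of the rest, Nudt13 (r = 0.996), Cyb561d2 (r = 0.993), Eif4ebp3 (r = 0.990), Tiparp (r = 0.988), C2 (r = 0.988) and Ighmbp2 (r = 0.985) had the highest correlation. These are the highest values among the genes ranked, given as a description.

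Among the remaining genes of the receptor pathway, 1 passed. Of 28 such genes 25 were tested, 0 were called higher and 1 lower, with a median log2 fold change of −0.056. The kinases and the lipase behind the receptor had log2 fold changes of −0.027 for Syk, −0.14 for Lyn and −0.056 for Plcg2. Ptpn6, the phosphatase that Cd22 and Cd72 recruit, had 0.059 (95% interval −0.76 to 0.88), and the further inhibitory receptors Fcgr2b, Siglecg and Cd5 had −0.55, 0.016 and −0.16, none past the unadjusted p. The gene called lower was Nfatc1, a calcium-dependent transcription factor, at −2.60, −1.57 and −1.26 on SA-H arrays 4, 5 and 6, against 0.14, −0.37 and −0.49 on MOD arrays 1, 2 and 3 (log2 fold change −1.57, adjusted p = 0.091 in limma). Its probe was well above background on 2 of 3 SA-H arrays and 3 of 3 MOD arrays. With all 6 arrays required to be so, 0 of these pathway genes were called.

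Of 15 transcription factors of the B lineage 14 were tested, with 0 called higher, 1 lower and a median of −0.14. Tcf3, the E protein that starts the lineage with Ebf1, was the one called lower, at 2.23, 2.72 and 2.73 on SA-H arrays 4, 5 and 6, against 3.80, 3.04 and 4.13 on MOD arrays 1, 2 and 3 (log2 fold change −1.10, adjusted p = 0.13 in limma). The call was lost without SA-H array 4 (−0.93), MOD array 1 (−1.03) or MOD array 3 (−0.86). Ebf1 itself had −0.15 and Foxo1 0.54, without an unadjusted p under 0.05. Of 24 other B cell surface markers 20 were tested and 0 were called, with 0 under an unadjusted p of 0.05 and a median of −0.10. The complement receptor Cr2 had −0.19, and the low-affinity IgE receptor Fcer2a had 1.06 (95% interval −0.0012 to 2.11). The summed level of these 20 markers was 185 to 234 on SA-H arrays and 219 to 255 on MOD arrays, so that the values of the groups overlapped. Over the 3 lists, 2 of 56 tested genes were called, Nfatc1 and Tcf3, and 0 were with the mean of all kept probes of a gene or with normexp background correction.

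Stages before and after the mature B cell gave 1 passing gene each by unadjusted p. Of 11 precursor genes 7 were tested, with a median of 0.34, and Vpreb1, a surrogate light chain, had 0.86 (adjusted p = 0.12). Of 8 plasma cell markers 6 were tested, with a median of −0.59, and Xbp1, which drives secretion, had −0.96 (adjusted p = 0.10). Neither reached the fold limit. Among T cell markers 0 of 18 tested were called, with a median of −0.069 and 0.071 for Cd3e. Neutrophil markers had 0 of 9 called, with Ngp, a granule protein, at −0.94 (adjusted p = 0.095).

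Genes outside the lymphocyte lists differed as well, beside the 8.74% called higher and 4.93% called lower over everything tested. Of 21 mitosis genes tested, which mark dividing cells of any type, 9 were called lower and 0 higher, with a median of −0.95. Among them Hmmr, Anln, Bub1b and Bub1 had the smallest p, with −1.22, −1.30, −1.37 and −1.28. The summed level of the mitosis genes was 127 to 288 on SA-H arrays and 232 to 248 on MOD arrays, so that it overlapped between the groups. Of 14 erythroid markers tested 3 were called lower and 1 higher, with a median of −0.60 that was 0.066 within scan day 2. Among those called lower, the red cell membrane genes Epb42 and Rhag had −1.62 and −1.18. The summed level of the erythroid markers was 391.6 to 1005 on SA-H arrays and 414 to 565 on MOD arrays. Of 10 macrophage and monocyte markers 1 was called lower and 0 higher. Spic, a factor of red pulp macrophages, had 0.86 (adjusted p = 0.12), below the fold limit. C1qa, a complement chain made by macrophages, was called lower, at −4.70, −1.06 and −1.10 on SA-H arrays 4, 5 and 6, against 0.20, −0.17 and 0.14 on MOD arrays 1, 2 and 3. It was well above background on 2 of 3 SA-H arrays and 3 of 3 MOD arrays, and 0 of these markers were called when all 6 were required. SA-H array 4 lay far below the other arrays, and under the lowest level well above background on that array (−2.70). The log2 fold change of C1qa was −2.34 with array 4 and −1.14 without it. Its call was lost without any 1 of the MOD arrays (−2.27 to −2.46). Fat markers had the median farthest from 0 of the lists, −2.47, with 4 of 5 tested genes called lower, among them Cidec (−2.62), Car3 (−2.89) and Adipoq (−2.38). Of these 5 genes 1 was well above background on all 6 arrays, and 0 were called when that was required. Fabp4 had −0.80, and the median of the fat markers was −1.52 without SA-H array 4. The summed level of the fat markers was 4.02 to 5.51 on SA-H arrays and 8.73 to 13.3 on MOD arrays, without overlap. Of 24 ribosomal protein genes 3 were called higher and 0 lower, with a median of 0.47, and Rps3, Rps24 and Rpl10a had 1.61, 1.17 and 0.72 and Rplp1 −0.63. In the value table of the series 14 of 14 erythroid markers and 18 of 21 mitosis genes were called lower. So were 6 of 9 neutrophil markers and 6 of 6 plasma cell markers. There 3 of 7 B cell precursor genes and 3 of 18 T cell markers were called higher, and 0 of 5 fat markers in either direction. Over all 14829 tested, 320 were called higher and 1005 lower in that table. The part of these genes and cells in the levels of the 9 genes was not tested.

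**Figure D3:**
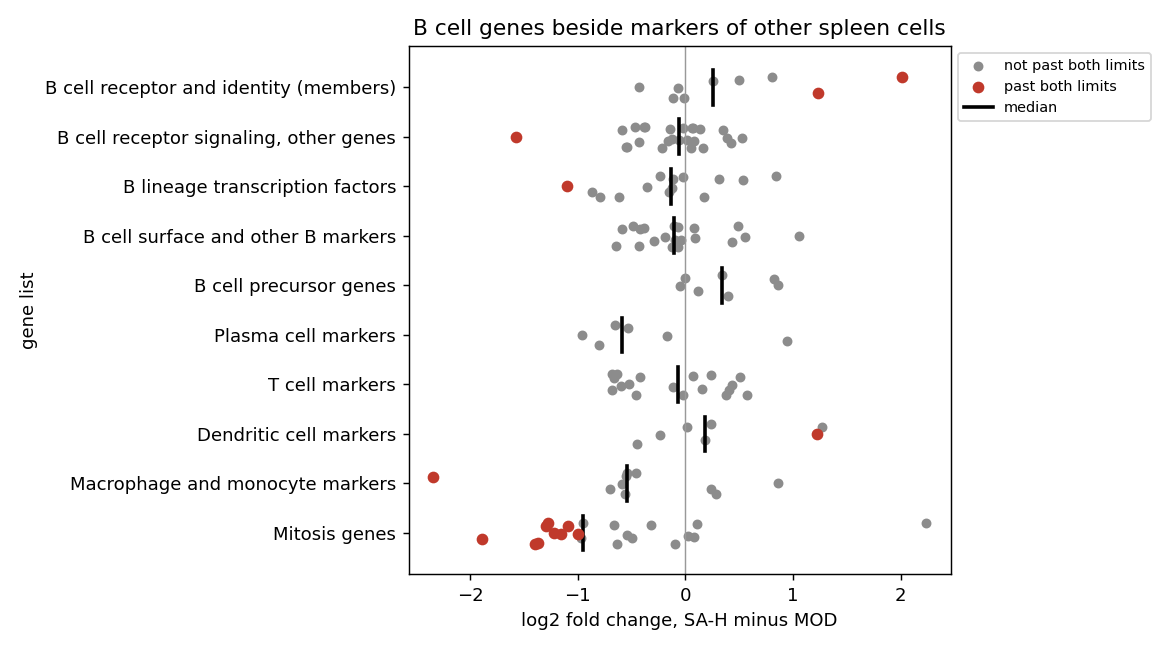
Log2 fold change, SA-H minus MOD, of every tested gene in 10 lists, with red points past both the fold and the unadjusted p limits and the median of each list as a bar. The members have a median of 0.26 and the next 3 B cell lists −0.056, −0.14 and −0.10, beside −0.021 for everything tested and −0.95 for the mitosis genes.

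The value table deposited with the series gave another picture of several members. It holds log2 values whose making is not given in the sources used here, and the deviations of its columns from the gene means were most like those of the column's own scanner file for 3 of 6 arrays (r of −0.28 to 0.46 with the own file). In that table Cd72 read 12.2, 11.4 and 11.9 in SA-H columns 4, 5 and 6, against 10.7, 10.9 and 11.2 in MOD columns 1, 2 and 3, and Spib read 14.5, 14.3 and 14.5 in SA-H columns, against 13.6, 13.7 and 13.8 in MOD columns. Cd22, however, read 11.2, 11.4 and 11.2 in SA-H columns, against 11.1, 11.2 and 11.3 in MOD columns, a difference of 0.045. Pax5 read 8.51, 8.12 and 8.41 in SA-H columns, against 7.18, 7.20 and 7.29 in MOD columns, a log2 fold change of 1.13 (adjusted p = 0.011 in limma). Of the 9 members, 6 were higher in SA-H without overlap there, against 20.0% of everything tested. The direction in the value table was that of the scanner files for Cd79b, Cd22, Cd72, Btk and Spib and the opposite for Cd79a (0.21), Ms4a1 (0.17), Blnk (0.41) and Pax5. Adjusted p in limma there was also under 0.05 for Spib (0.025) and Cd79b (0.032). In that fit 11.9% of everything tested had an adjusted p under 0.05.

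**Figure D4:**
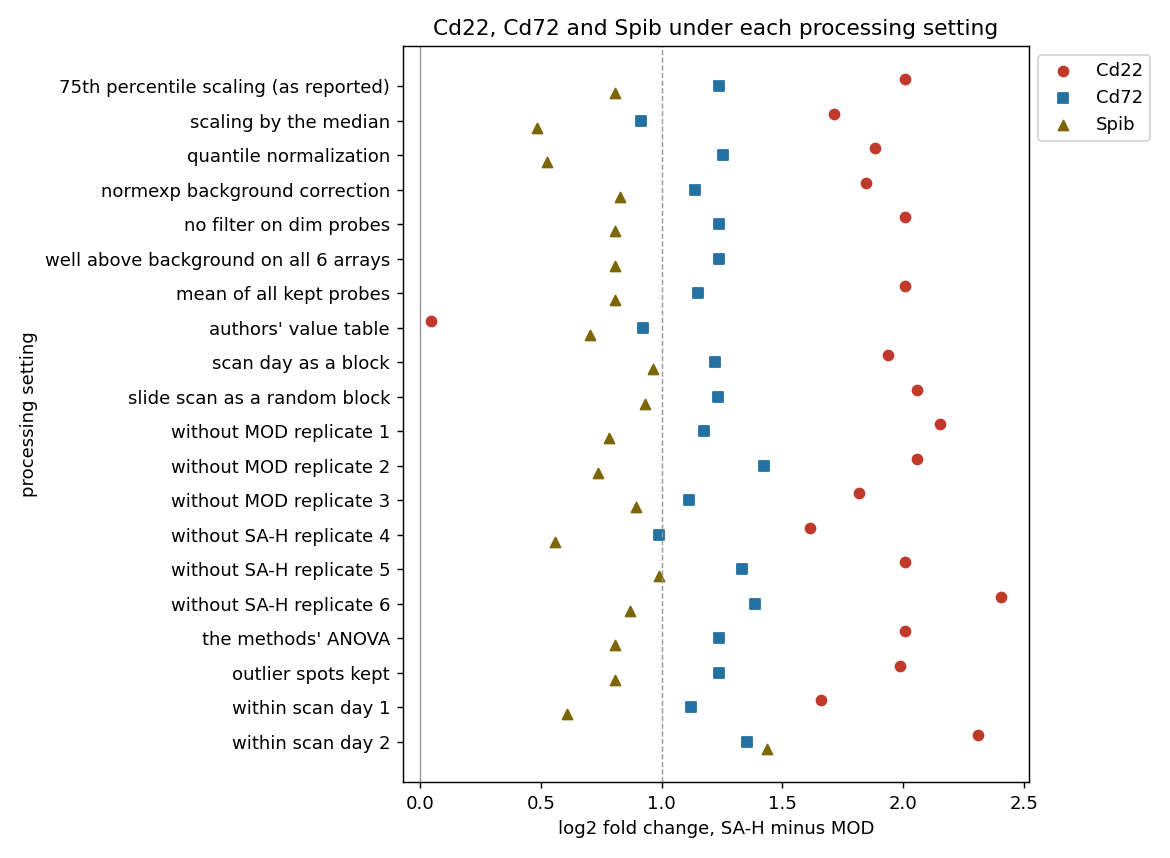
Log2 fold change of Cd22, Cd72 and Spib, SA-H minus MOD, under the processing as reported (top) and each alternative. The dashed line marks the fold limit of 2. Cd22 stayed between 1.61 and 2.40 except in the value table (0.045) and has no point where all 6 arrays had to be well above background, Cd72 ran from 0.92 to 1.42, and Spib from 0.48 to 1.44.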

How the data were processed

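The authors obtained the intensity values with Agilent Feature Extraction 11.0.1.1, which, per the file headers, subtracts background; they are linear and not normalized between arrays, and the flags for spots well above background and for outlier spots come from the same software. The deposited value table holds log2 values, a scale read from their range, and was used as an alternative. Here each log2 signal was set against its array's 75th percentile. Outlier spots were left out, spots of a probe averaged, and a probe kept when either group had it well above background on all 3 arrays. An array without a value counted as not well above background, so that Cd22 was kept through the MOD arrays. The brightest kept probe represented the gene. Of 39429 probes, 69.1% matched a symbol through RefSeq accessions. Groups were compared with limma 3.58.1 (R 4.3.3; linear model, empirical Bayes, Benjamini-Hochberg over 14829 targets), with Python 3.11.15 for the rest. The fit was tested on simulated data. With 3 arrays a group, their number limits the precision. Alternatives covered scaling, background correction (normexp on the median signals, since mean signals were not used here), filters, probe choice, scan day, slide scan, the ANOVA of the methods and each array left out. All 9 members are named, and from each other list up to 4 genes with an unadjusted p under 0.05, smallest first, with core genes of the pathway. Members and lists were chosen with earlier results of these data known. The values of some genes under this rule are not reported here.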

Additional observations from a re-analysis of the deposited data

How the results depend on the processing

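Of everything tested, 2027 targets were called, 63.9% of them higher in SA-H. The count was 3321 (34.7% higher) under median scaling, 1246 with probes well above background on all 6 arrays, 1325 (24.2% higher) in the value table, 1262 by the ANOVA of the methods, 3533 by unadjusted p alone (49.0% higher), 0 by adjusted p, and 1360 to 2650 with 1 array left out; normexp correction gave 72.5% higher. Of the 9 members 2 were called, 1 under median scaling (Cd22), 1 with probes well above background on all 6 arrays (Cd72, since Cd22 has no value there), 1 in the value table (Pax5), 0 by adjusted p in the reported fit, and 1 to 2 with 1 array left out (Cd22 alone without SA-H array 4). Of 56 tested genes in the other 3 B cell lists 2 were called, 4 under median scaling, 1 with all 6 arrays above background, 0 with normexp, the mean of probes or adjusted p, and 1 to 4 with 1 array left out (1 without MOD array 1, MOD array 3 or SA-H array 4, and 4 without MOD array 2). Adjusted p was under 0.05 for Cd22 and Cd72 with scan day as a block (0.025 and 0.042), for Cd22 under median scaling (0.036) and normexp (0.041), and for Pax5 (0.011), Spib (0.025) and Cd79b (0.032) in the value table. In these fits adjusted p was under 0.05 for 7.94% (scan day), 8.09% (median scaling), 2.39% (normexp) and 11.9% (value table) of everything tested. Directions turned for genes that were not called. Cd79a had 0.21, Ms4a1 0.17, Blnk 0.41 and Pax5 1.13 in the value table. Cd79b had −0.062 under median scaling, −0.070 under quantile normalization and −0.014 relative to the other members, whose mean includes the higher Cd72 and Spib. Ms4a1 had 0.12 within scan day 1. Blnk had 0.091 with scan day as a block, 0.096 and 0.084 within days 1 and 2, and −0.22 to 0.14 with 1 array left out. Pax5 had 0.15 with normexp, 0.060 with scan day and 0.040 with slide scan as a block, 0.029 and 0.10 within days 1 and 2, and −0.20 to 0.18 with 1 array left out. The dimmer Btk probe had −0.28 under median scaling, −0.11 under quantile normalization, −0.14 with scan day as a block, and −0.29 to 0.67 with 1 array left out. The cause of these changes was not tested. Spib had an unadjusted p under 0.05 in 11 of 17 alternatives and was called in 0. Cd22 was called in 15 of 16 and Cd72 in 14 of 17. Some of these could not move the log2 fold change of Cd22, which has 1 probe and no value on SA-H array 5. They were the mean of probes, no filter on dim probes, the ANOVA and SA-H array 5 left out, all at 2.01. The ANOVA and the filters likewise kept the 1.24 of Cd72. No paired analysis was possible because the groups share no replicate numbers.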
